A study of Homo sapiens with 4 samples.

Results

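The genes of the constitutive proteasome, its activators and its assembly chaperones were followed in HEK293, a transformed human kidney-derived cell line, before and 12 h after transfection of a short synthetic double-stranded RNA. They were set by a rule on gene names, chosen with earlier results of these data known. The rule took every gene whose symbol in the platform annotation begins with PSMA, PSMB, PSMC, PSMD, PSME or PSMG and a number, without the interferon-inducible catalytic genes PSMB8 and PSMB9. This gave 47 of the 18639 genes on the array, measured by 52 probes. Of these, 42 encode proteasome subunits, activators or chaperones. The other 5 share only the prefix, namely the pseudogenes PSMB3P2 and PSME2P2, the antisense gene PSMB8-AS1, and PSMC3IP and PSME3IP1, which encode partner proteins. The subunit genes PSMC5, PSMD7 and PSMD13 are not analysed here, as the annotation names no probe for them.

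Each of 4 arrays held total RNA of 1 culture condition. One transgenic line expressed LGP2, a helicase that senses viral RNA together with RIG-I and MDA5, and the other LGP2-4KR (4KR below), a form that the labels do not define further. Both lines were taken untreated, at 0 h, and 12 h after short poly I:C, at 100 ng per ml, was introduced with a cationic lipid reagent. The promoter of the transgenes and the number of clones are not given in the sources used here. With 1 array per condition and no mock-transfected cells, no ratio has a replicate check, and effects of poly I:C, of the lipid and of the added time in culture cannot be told apart.

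The proteasome is the protease that degrades ubiquitin-tagged proteins. Its 20S core is a barrel of outer alpha rings, which gate the entrance, and inner beta rings, which hold the catalytic sites. The 19S cap on its end has a base of ATPases (PSMC) that unfold substrates, and a set of non-ATPase subunits (PSMD) that bind and remove ubiquitin. Interferon is known to induce an alternative set, the immunoproteasome, in which PSMB8, PSMB9 and PSMB10 replace the catalytic subunits PSMB5, PSMB6 and PSMB7, and the PA28 activator of PSME1 and PSME2 caps the core. The constitutive subunits are known to be raised together by the transcription factor NFE2L1 when the protease is impaired.

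PSME1, PSME2 and PSMB10 thus belong to the interferon-linked set, and letters of the interferon-stimulated response element (GAAA, any 2 bases, GAAA) stand beside their start sites. The sequences are shown because these are the members for which an interferon response would be looked for first. The windows below, from RefSeq on GRCh38.p14, run from 60 bases before to 30 bases after the start of transcription, 5′ to 3′ on the strand of the gene, and capitals mark the match on either strand. PSME1 lies at chr14:24136134-24136223 (plus strand), PSME2 at chr14:24146581-24146670 (minus), PSMB10 at chr16:67936821-67936910 (minus), PSMG4, a chaperone gene with the same letters, at chr6:3258887-3258976 (plus), PSMB8, at the downstream of its 2 listed starts, at chr6:32844018-32844107 (minus), and PSMB9 at chr6:32854132-32854221 (plus). PSMB9 is shown because it holds no match. The window at the upstream start of PSMB8, at chr6:32844650-32844739 (minus), is not shown and holds no match either.
PSME1: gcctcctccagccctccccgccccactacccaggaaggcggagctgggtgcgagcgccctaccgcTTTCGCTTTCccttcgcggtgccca
PSME2: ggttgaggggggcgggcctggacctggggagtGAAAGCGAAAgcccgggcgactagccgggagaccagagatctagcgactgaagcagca
PSMB10: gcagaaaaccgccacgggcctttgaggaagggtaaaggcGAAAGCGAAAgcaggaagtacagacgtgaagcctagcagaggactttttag
PSMG4: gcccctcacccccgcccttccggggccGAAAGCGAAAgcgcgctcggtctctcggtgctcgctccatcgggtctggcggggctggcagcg
PSMB8: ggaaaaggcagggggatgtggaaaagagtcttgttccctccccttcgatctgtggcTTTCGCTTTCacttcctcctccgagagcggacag
PSMB9: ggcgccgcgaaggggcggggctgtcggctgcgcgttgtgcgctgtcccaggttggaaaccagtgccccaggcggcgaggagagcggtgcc

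Over the full RefSeq windows, from 250 bases before to 50 after the start, the response element letters were found on either strand in 1248 of 34943 promoters (3.57%) and in 7 of the 47 promoters (14.9%) of the 39 members that matched the table. The 7 belonged to PSME1, PSME2, PSMB10, PSMG4, PSMA4, PSMB4 and PSMB8-AS1, whose window overlaps that of PSMB8. The exact letters GAAAGCGAAA occurred in 35 promoters of the table (0.100%), and 5 of the members had them. TGACNNNGC, the core of the antioxidant response element that NFE2L1 and NFE2L2 bind, was found in 13.3% of all promoters and 27.7% of member promoters, among them PSMA4, PSMC4, PSMD1, PSMD12, PSME1 and PSME2. CCAAT was found in 34.6% and 44.7%, and TTCNNNGAA, the gamma-activated site, in 7.66% and 17.0%. These matches describe letters in a window and are not measured binding sites. PSMA7, PSMB1, PSMB3P2, PSMB6, PSMB7, PSMD4, PSME2P2 and PSMG3 are not in the table.

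Detection required a signal above the mean of the array's blank spots by more than 2 of their SD. Of the 47 genes, 45 were detected on all 4 arrays, and PSMD5, a chaperone of the 19S base, and PSMB8-AS1 on none. Levels below are the deposited intensities, in which the median of each array is 25. Ratios are log2 ratios after background correction with an offset of 50 and quantile normalization, which shrinks the ratios of dim genes. Deposited intensities and normalized ratios can therefore differ. Over genes with a mean deposited intensity of at least 100, the difference of the responses of the 2 lines gave an SD of 0.10 for a single log2 ratio. This SD was estimated from the median absolute deviation, which gives little weight to the largest differences. It is a yardstick taken across genes and not across replicates. All 5 HEK293 markers with a named probe (VIM, KRT18, NEFM, LIN28B and PAX2) were detected on every array. Their intensities were 1084.4 to 1560.6 for VIM, 281.9 to 361.7 for KRT18 and 72.75 to 85.05 for LIN28B. NEFM was at 34.3 to 39.2 and PAX2 at 8.4 to 9.65. Between 83.2% and 89.2% of all gene probes passed detection, so detection by itself says little about cell type. Among markers of other cells, those of leukocytes were split between PTPRC, detected on no array, and CD3E and CD14, detected on all 4, with a summed intensity between 33.6 and 38.0. Of fibroblast markers DCN was detected on all 4, at 79.9 to 91.7, while COL1A1 and COL3A1 were each detected on 1. PECAM1 of endothelium and ALB of hepatocytes were detected on none, CDH5 on 3, none above 2.40, and APOA1 on all 4 at 2.62 to 5.10. The 3 keratinocyte markers were detected on all 4, with a summed intensity of 211.8 and 207.9 at 0 h and 269.5 and 282.5 at 12 h in LGP2 and 4KR cells, and their part in the responses was not tested.

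The PA28 genes were lower after stimulation relative to all genes, while 2 of the 5 immunoproteasome genes had higher deposited intensities. PSME1, the alpha subunit of PA28, had an intensity of 233.3 and 206.6 at 0 and 12 h in LGP2 cells, and of 224.8 and 186.0 in 4KR cells. PSME2, the beta subunit, was at 547.8 and 488.8 in LGP2 cells and at 521.7 and 430.3 in 4KR cells. For both genes each 12 h array was below both 0 h arrays. The log2 ratio was -0.32 and -0.35 for PSME1 in LGP2 and 4KR cells, and -0.24 and -0.26 for PSME2. Without normalization between arrays these 4 ratios were between 0.02 and 0.24, while all genes had medians of 0.12 and 0.27 in the LGP2 and 4KR comparisons. Relative to that median, PSME1 was at -0.43 to -0.10 in LGP2 cells and at -0.42 to -0.04 in 4KR cells over the 6 scalings tried, and PSME2 was below 0 in all of them as well.

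PSMB10, the immunoproteasome counterpart of PSMB7, was near background. Its intensity stood at 1.96 and 3.20 in LGP2 cells and 2.30 and 2.70 in 4KR cells, where the detection limit lay between 1.06 and 1.29. The deposited values correspond to a ratio of 1.63-fold and 1.17-fold, but the normalized log2 ratios were -0.0015 and -0.02. At this level the offset leaves little of any ratio, so the normalized values do not tell whether PSMB10 changed.

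The other immunoproteasome genes, which are no members, differed from each other. PSMB9 was at 12.4 and 47.1 in LGP2 cells and at 13.6 and 42.1 in 4KR cells, with log2 ratios of 0.77 and 0.68, so both 12 h arrays stood well above both 0 h arrays. PSMB8 had 1 detected probe, with intensities of 174.4 and 162.7 in LGP2 and 186.9 and 136.2 in 4KR cells and log2 ratios of -0.27 and -0.50. Its other probe was not detected on any array. Of the 5 immunoproteasome genes, PSMB9 alone was at least 1.2-fold higher in either line after normalization. Among the interferon-response genes measured on the same arrays, ISG15, which encodes a ubiquitin-like protein, had log2 ratios of 4.83 and 4.80, IRF1, a transcription factor, of 1.82 and 1.66, and the peptide transporter gene TAP1 of 1.13 and 0.96. UBE2L6, the conjugating enzyme for ISG15, stood at 0.64 and 0.71. The plot of immunoproteasome and interferon-response genes on the 4 arrays sets both groups side by side.

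**Figure D1:**
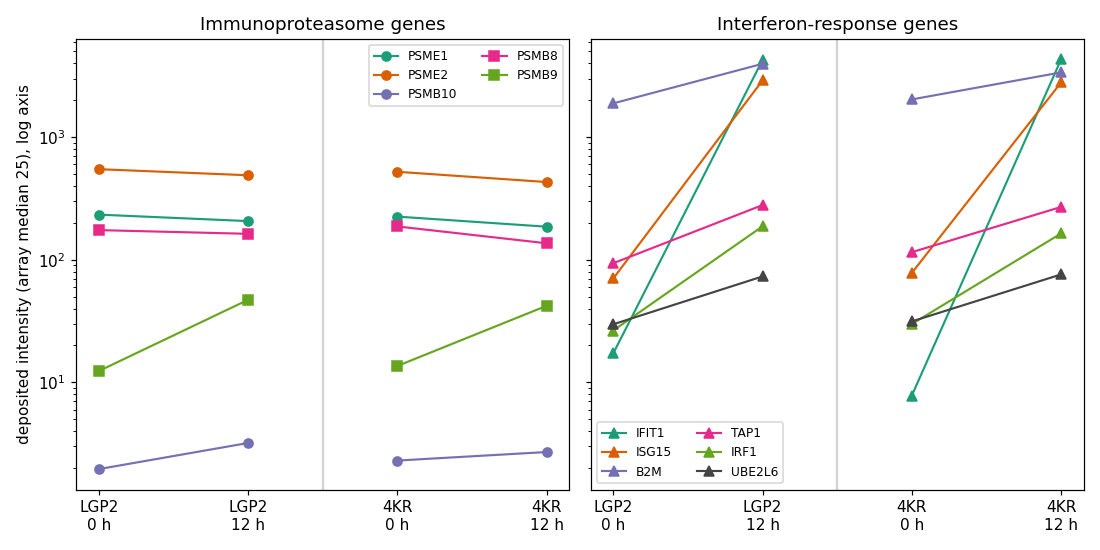
Deposited intensity (log axis, array median 25) of the 5 immunoproteasome genes (left) and of 6 interferon-response genes (right) on the 4 arrays, 1 point per array, with lines joining both times of a line of cells. PSMB9 goes from 12.4 to 47.1 in LGP2 cells and from 13.6 to 42.1 in 4KR cells, while PSME1, PSME2 and PSMB8 are slightly lower at 12 h and PSMB10 stays between 1.96 and 3.20.

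Across the whole set, responses were small. In LGP2 cells the 45 detected members ranged from -0.95 to 0.58. At 1.2-fold, 3 were higher and 9 lower, where 8.55% of the 16675 detected genes were higher and 7.25% lower. Genes with a mean deposited intensity of at least 100, which most members have, are the nearer background, and of these 17.5% were higher and 17.8% lower. At 1.5-fold, 0 members were higher and 2 lower (PSMD2 and PSMB5), where 1.9% and 0.51% of all genes were, and 4.96% and 1.44% of those above 100. The median log2 ratio of the members was -0.07, against -0.01 for all genes and -0.03 for those above 100. The counts at 1.2-fold depended on the scaling. Without normalization between arrays 10 members were higher and 2 lower, while the median of all genes was 0.12. With a common median for each array they were 5 and 4, at an all-gene median of -0.02. In the deposited table they were 8 and 7, at an all-gene median of 0.25.

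In 4KR cells 2 members were at least 1.2-fold higher and 8 lower, where 8.42% of all genes were higher and 7.45% lower, and 17.7% and 18.8% of those above 100. At 1.5-fold, 0 members were higher and PSMB7 alone was lower, where 1.59% and 0.429% of all genes were, and 4.16% and 1.39% of those above 100. The median was -0.10, against -0.01 for all genes. This median depended on the scaling: relative to all genes it was -0.09 here, -0.0075 with a common median for each array, 0.0070 without normalization and -0.36 in the deposited table. The counts at 1.2-fold did so too. Without normalization 23 members were higher and 0 lower, while the median of all genes was 0.27. With a common median they were 6 and 3, at an all-gene median of -0.01. In the deposited table they were 3 and 17, at an all-gene median of 0.15. In both lines, 2 members were at least 1.2-fold higher (PSMG3 and PSMC3IP) and 5 lower (PSMA1, PSMB7, PSMD10, PSME1 and PSMB3P2), where 5.8% and 4.28% of all genes were, and 12.0% and 11.3% of those above 100.

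**Figure D2:**
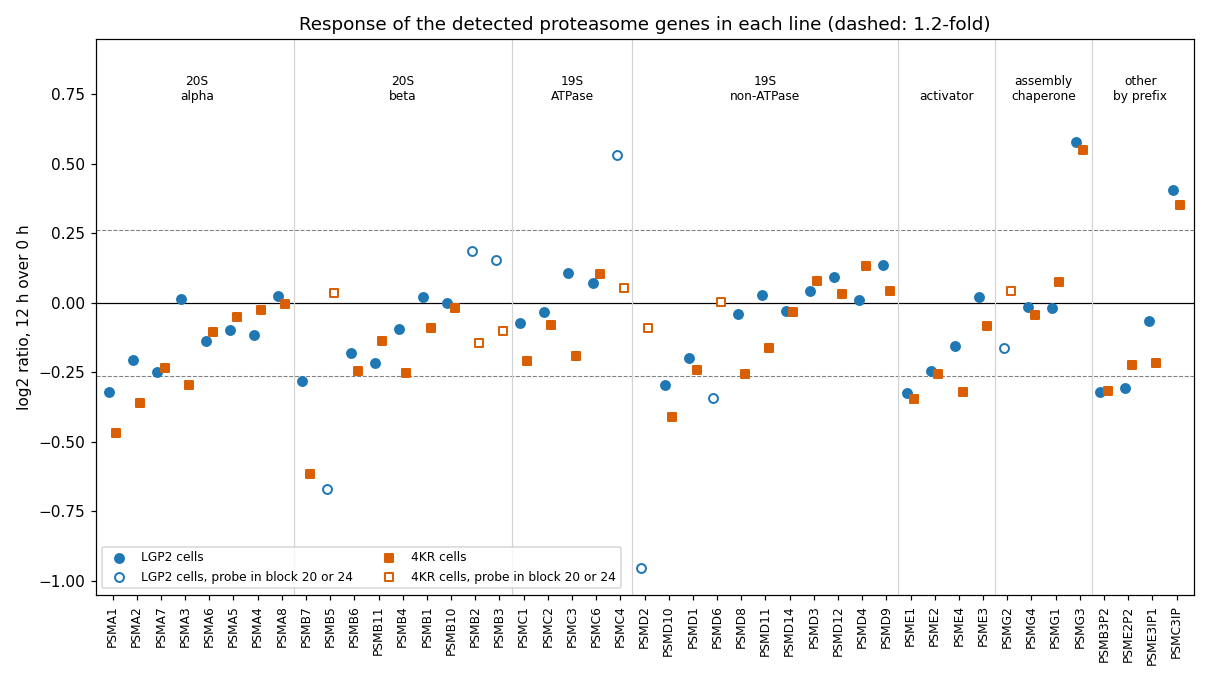
Log2 ratio of 12 h over 0 h for the 45 detected members, ordered within each role by the mean of both lines; circles are LGP2 cells, squares 4KR cells, open symbols genes with a probe in block 20 or 24, and dashed lines 1.2-fold. PSMG3 and PSMC3IP lie above the upper line in both lines of cells, while PSMD2 and PSMB5 are far below 0 in LGP2 cells and near 0 in 4KR cells.

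A single test was possible, an additive limma fit over line and time in which the 2 lines stand in for replicates, with 1 residual degree of freedom per gene. It called 2 members higher and 9 lower at 12 h at a Benjamini-Hochberg adjusted p under 0.05, where 8.03% of all 17085 genes were called higher and 7.39% lower, and 15.2% and 17.0% of those above 100. Higher were PSMG3 and PSMC3IP, and lower were PSMA1, PSMA7, PSMB6, PSMD1, PSMD10, PSME1, PSME2 and the pseudogenes PSMB3P2 and PSME2P2. These calls rest on the scaling: without normalization between arrays 17 members were called higher and 0 lower, with the deposited values 2 and 0, and 0 of either kind when the blank level was simply subtracted. In that last setting 67 genes of the whole array were called, against 2635 here.

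Of the 8 alpha subunit genes of the outer ring, 6 had ratios below 0 in LGP2 cells and 8 in 4KR cells, beside 8844 of 16675 and 8869 of 16564 genes of the array. At 1.2-fold, 1 and 3 of the 8 were lower and 0 higher, with medians of -0.13 and -0.17. Of all genes, 7.25% and 7.45% were lower and 8.55% and 8.42% higher. Of those above 100, 17.8% and 18.8% were lower and 17.5% and 17.7% higher. Without normalization between arrays PSMA3, PSMA4, PSMA5, PSMA6 and PSMA7 had ratios of 0.11 to 0.37 in 4KR cells. PSMA1 was lowest, with intensities of 879.4 and 725.1 in LGP2 cells and 857.5 and 585.2 in 4KR cells. Its log2 ratios were -0.32 and -0.47, and the fitted response over both lines was -0.40 ± 0.051 (SE; limma, adjusted p = 0.034). PSMA1 was below 0 in each of the 6 scalings, the one without normalization included (-0.08 and -0.02).

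PSMA7 had the same ratio in both lines, -0.25 and -0.24, from 1921 to 1503 in LGP2 cells and from 1902 to 1437 in 4KR cells. The fit gave -0.24 ± 0.030 (SE; limma, adjusted p = 0.033). PSMA2 was at -0.20 and -0.36, with intensities of 2799 and 2329 in LGP2 cells and 2701 and 1844 in 4KR cells (adjusted p = 0.057). PSMA3 was at 0.01 in LGP2 cells but at -0.30 in the 4KR line, while PSMA4, PSMA5 and PSMA6 lay between -0.14 and -0.02 in both. PSMA4 went from 3289 to 2814 in LGP2 cells and from 3275 to 2626 in 4KR cells, so that both 12 h arrays were below both 0 h arrays in the deposited values. PSMA8, a testis-specific alpha subunit, had intensities between 2.65 and 4.60, close to the detection limit, and ratios of 0.02 and -0.01.

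Among the 9 beta subunit genes, PSMB7 and PSMB5, both catalytic, carried the largest ratios. PSMB7, the trypsin-like site, had intensities of 1567 and 1241 in LGP2 cells and 1564 and 934 in 4KR cells. The 0 h arrays were alike, the 12 h arrays were lower, and the ratio was -0.28 in LGP2 and -0.62 in 4KR cells. The fit gave -0.45 ± 0.097 (SE; limma, adjusted p = 0.073), and both ratios were below 0 in each of the 6 scalings. PSMB6, the caspase-like site, was at 2302 and 1906 in LGP2 cells and at 2021 and 1501 in 4KR cells, with ratios of -0.18 and -0.24 (limma, adjusted p = 0.047).

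PSMB5, the chymotrypsin-like site, was high on a single array. Its intensity was 1678 in LGP2 cells at 0 h and 1025, 1085 and 1020.1 on the others, in LGP2 cells at 12 h and 4KR cells at 0 and 12 h. LGP2 cells thus had a log2 ratio of -0.67, against 0.03 for 4KR cells. Its probe lies in block 24 of the array, and the position of probes is taken up below. The structural beta genes were between -0.09 and 0.19 in LGP2 cells for PSMB1, PSMB2, PSMB3 and PSMB4, and between -0.25 and -0.09 in 4KR cells. PSMB1 had intensities of 3476 and 3145 in LGP2 cells and 3509 and 2711 in 4KR cells, and PSMB4 of 1449 and 1299 against 1458 and 1099.8, each lowest on the array of stimulated 4KR cells.

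PSMB11, the thymus-specific beta subunit, had 2 probes that disagreed. One was at -0.36 and -0.32, with intensities from 33.3 to 24.6 in LGP2 cells and from 34.3 to 25.6 in 4KR cells, and the other at -0.07 and 0.04. The pseudogene PSMB3P2 was at -0.32 in both lines (limma, adjusted p = 0.026), while its parent gene PSMB3, in block 20, was at 0.15 and -0.10. It was not tested whether either probe also reads the other transcript.

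The 19S genes were for the most part near 0. Of the 5 ATPase genes, 3 were above 0 in LGP2 cells and 2 in 4KR cells, beside 7821 of 16675 and 7682 of 16564 genes of the array. PSMC4 was the highest in LGP2 cells, with intensities of 343.5 and 552.1 in LGP2 cells and 526.9 and 539.0 in 4KR cells. The array of untreated LGP2 cells was low and the other 3 were alike, which gave a ratio of 0.53 in LGP2 and 0.05 in 4KR cells, for a probe in block 20. PSMC1 was the lowest at -0.07 and -0.21, with intensities of 1352 and 1242 in LGP2 cells and 1406 and 1097 in 4KR cells.

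Of the 11 detected non-ATPase genes, 6 were below 0 in each line, with a median of -0.03 in both. Of all genes, 8844 of 16675 were below 0 in LGP2 cells and 8869 of 16564 in 4KR cells. PSMD10, gankyrin, a chaperone of the base, was at 841.8 and 707.2 in LGP2 cells and at 839.2 and 592.3 in 4KR cells. Its ratios were -0.30 and -0.41 (fit -0.35 ± 0.044, SE; limma, adjusted p = 0.032), and 0.03 in 4KR cells without normalization. PSMD1, the large scaffold of the base, was at -0.20 and -0.24 (limma, adjusted p = 0.040). PSMD9, another base chaperone, was highest in LGP2 cells, at 0.14 and 0.04, with intensities of 305.8 and 375.3 in LGP2 cells and 323.7 and 343.9 in 4KR cells.

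PSMD14, the deubiquitinase of the lid, was at -0.03 in both lines, from 634.6 to 667.5 in LGP2 cells and from 643.0 to 617.1 in 4KR cells. PSMD4, a ubiquitin receptor, was at 0.01 and 0.13, with intensities of 2211, 2019.5, 2116 and 2077 in LGP2 cells at 0 and 12 h and 4KR cells at 0 and 12 h. PSMD3 and PSMD12, lid scaffolds, lay between 0.03 and 0.09 in both lines. PSMD8, another lid subunit, was at -0.04 in LGP2 cells, from 1835 to 1681, and at -0.26 in 4KR cells, from 1877 to 1412. PSMD2, the other large scaffold of the base, had the lowest ratio of all members, -0.95 in LGP2 cells against -0.09 in 4KR cells, with intensities of 659.4, 354.0, 423.0 and 397.2 in LGP2 cells at 0 and 12 h and 4KR cells at 0 and 12 h. As for PSMB5, the array of untreated LGP2 cells stood above the others and the probe lies in block 24.

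Among the other activators, PSME4, which encodes PA200, was at -0.16 and -0.32, with intensities of 101.8 and 106.4 in LGP2 cells and 106.5 and 90.6 in 4KR cells. PSME3, the nuclear PA28 gamma, was a dim probe at 0.02 and -0.08, with intensities between 11.9 and 15.1. The pseudogene PSME2P2 was at -0.31 and -0.22, close to its parent PSME2, and whether its probe also reads the parent transcript was not tested.

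PSMG3, one of the chaperones that build the alpha ring, was the subunit or chaperone gene with the highest response in both lines. Its intensity stood at 260.7 and 446.8 in LGP2 cells and 275.0 and 430.8 in 4KR cells, so that both 12 h arrays stood well above both 0 h arrays. The log2 ratios were 0.58 and 0.55, and the fit gave 0.57 ± 0.031 (SE; limma, adjusted p = 0.023). Over the 6 scalings the ratio was 0.58 to 0.90 in LGP2 and 0.55 to 1.09 in 4KR cells, and relative to all genes it was at least 0.50. The other chaperones of the alpha ring had lower ratios. PSMG4, the direct partner of PSMG3, was at -0.02 and -0.04. PSMG1, which forms the other chaperone pair with PSMG2, was at -0.02 and 0.08, and PSMG2 at -0.16 and 0.04 as the mean of 3 probes. Those probes differed: the one in block 5 was at 0.01 in both lines, the dim one in block 10 at 0.04 and -0.02, and the one in block 24 at -0.53 and 0.14.

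PSMC3IP, a recombination factor that carries the prefix only, was higher through 1 of its 2 probes. The probe in block 8 went from 154.2 to 317.0 in LGP2 cells and from 154.7 to 292.4 in 4KR cells, a ratio of 0.74 and 0.73. The probe in block 3 went from 283.3 to 333.8 and from 268.7 to 282.8, a ratio of 0.08 and -0.02. The mean over both was 0.41 and 0.35 (limma, adjusted p = 0.025), and which transcript each probe reads was not tested. PSME3IP1, a partner of PSME3, was at -0.07 and -0.22.

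Genes that act with the proteasome were taken from a list of 25, of which 23 were detected. In LGP2 cells 1.2-fold was passed upward by 4 and downward by 2 of them, beside 8.55% and 7.25% of all genes, and in 4KR cells by 3 and 2, beside 8.42% and 7.45%. Of genes above 100, a level that only part of the list reaches, 17.5% and 17.8% passed it in LGP2 cells. In 4KR cells 17.7% and 18.8% of them did. Among the 4 upward genes of the list in LGP2 cells, UCHL5, a deubiquitinase of the cap, and UBQLN4, a ubiquitin shuttle, have probes in blocks 21 and 20. UCHL5 had the largest difference between the lines in the list, with ratios of 0.48 and -0.16 and intensities of 249.1 and 402.3 in LGP2 cells and 288.3 and 269.7 in 4KR cells. NFE2L2, a transcription factor of the antioxidant response, was highest over both lines at 0.52 and 0.56 (limma, adjusted p = 0.024), while NFE2L1, which drives the proteasome genes themselves, was at 0.02 and 0.09. ZFAND2A, a stress-induced proteasome adaptor, was at 0.44 and 0.42. POMP, the maturation factor of the core, was at -0.14 and -0.25, and RAD23B, a shuttle for ubiquitinated proteins, was lowest over both lines at -0.35 and -0.38, in block 24. Of 7 detected genes of ubiquitin and its activation, UBE2L6 was the highest, and UBA1, the ubiquitin-activating enzyme, the lowest at -0.30 and -0.71.

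The next comparison asked whether the responses differed between the lines. The difference is the log2 ratio of 12 h over 0 h in 4KR cells minus that in LGP2 cells, so its sign gives the order of the ratios and not the size of a response. At 1.2-fold, 3 members had a positive difference and 5 a negative one, where 3.22% and 3.19% of the 15738 genes did, and 6.67% and 7.34% of those above 100. These counts depended on the scaling. Without normalization between arrays they were 9 and 1, at an all-gene median difference of 0.13. With a common median for each array they were 4 and 2, at -0.01 for all genes. In the deposited table they were 3 and 15, at -0.11 for all genes. At 1.5-fold, 2 members had a positive difference, PSMD2 at 0.86 and PSMB5 at 0.70, and 0 a negative one. Of all genes 0.451% and 0.432% did, and 1.22% and 1.31% of those above 100. Both had ratios far below 0 in LGP2 cells and near 0 in 4KR cells. The next was PSMD6, a lid subunit, at 0.35. Its intensities were 482.2 and 402.3 in LGP2 cells and 366.7 and 372.4 in 4KR cells. On the negative side were PSMC4 at -0.48, PSMB7 and PSMB2, a structural beta subunit, at -0.33 each, PSMA3 at -0.31 and PSMC3 at -0.30. PSMB2 had intensities of 581.2 and 706.4 in LGP2 cells, with 797.6 and 683.0 in 4KR cells, and PSMA3 of 1226 and 1195 in LGP2 cells and 1258 and 942 in 4KR cells.

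The differences are set here beside the position of the probes on the array. Over all probes with a mean deposited intensity of at least 500, the median difference of the responses was 0.51 in block 24 (46 probes), -0.30 in block 20 (46 probes) and -0.51 in block 21 (49 probes). It was -0.0039 over the 938 probes outside these blocks. Single blocks among those still ranged from -0.17 in block 19 (46 probes) to 0.27 in block 23 (33 probes). The probe of PSMB3P2 lies in block 23. The probes of PSMD2, PSMB5 and PSMD6 lie in block 24 and those of PSMC4, PSMB2 and PSMB3 in block 20. PSMG2, a chaperone with 3 probes, has 1 of them in block 24. That probe had a difference of 0.67, with intensities of 212.9 and 161.7 in LGP2 cells and 131.2 and 160.9 in 4KR cells. The block 5 probe went from 196.1 to 228.1 in LGP2 cells and from 197.8 to 216.5 in 4KR cells. The probes of PSMG2 also differ in brightness, and why their ratios differ was not tested.

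Among the 38 detected members with no probe in blocks 20, 21 and 24, 0 had a positive difference of 1.2-fold and 3 a negative one. Of genes above 100 outside these blocks, 3.76% and 2.97% did. Both are counts after quantile normalization. The 3 members were PSMB7, PSMA3 and PSMC3, each with a lower ratio in 4KR cells. With a correction for position and brightness, chosen after seeing the data, PSMB5 had ratios of -0.28 and -0.09, PSMD2 of -0.61 and -0.23, PSMC4 of 0.07 and -0.11, and PSMD6 of -0.01 and -0.14 in LGP2 and 4KR cells. PSMB2 and PSMB3, above 0 in LGP2 cells without it, were then at -0.29 and -0.34 there, and at -0.31 and -0.27 in 4KR cells. The Pearson correlation between both responses was 0.86 over the 38 members and 0.53 over all 45, beside 0.92 over genes above 100 outside these blocks, 0.86 over all genes above 100 and 0.83 over all genes. Blocks 20, 21 and 24 are those with the largest median differences of the responses among bright probes. Leaving them out therefore brings the responses of the lines closer by construction. The counts and correlations without these blocks are no separate check. The members are genes on the same arrays and not independent, and the 2 responses share no array.

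**Figure D3:**
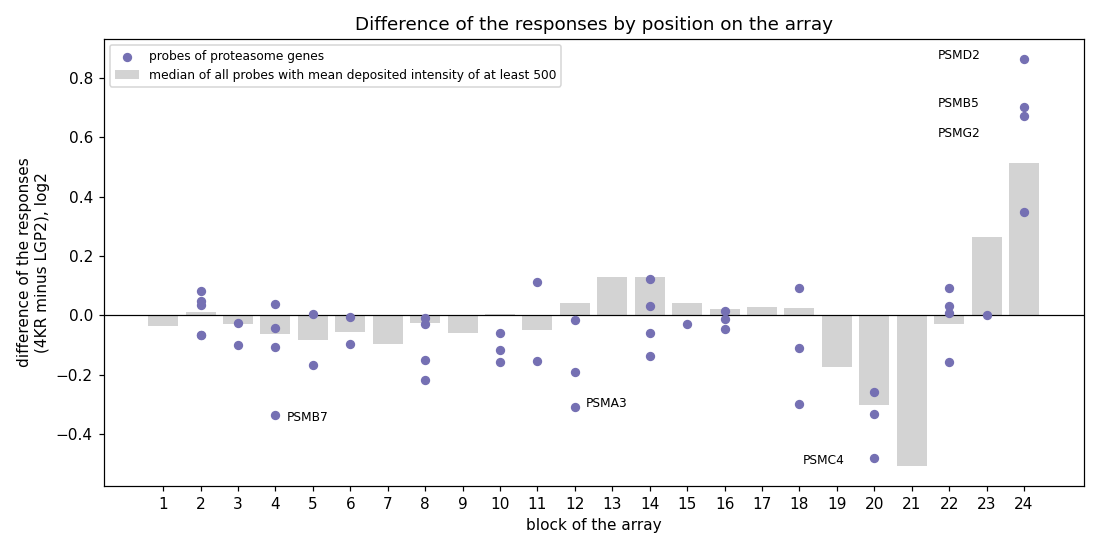
Difference of the responses (4KR minus LGP2, log2) for each detected probe of the set (points) by block of the array, with the median over all probes of at least 500 deposited intensity in that block (bars). The bars reach 0.51 in block 24 and -0.51 in block 21, and the largest member values, PSMD2 at 0.86 and PSMC4 at -0.48, stand in blocks 24 and 20.

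Between the lines without stimulation, 4 members were at least 1.2-fold higher in 4KR cells and 3 lower, where 1.15% and 2.5% of the 16128 detected genes were, and 2.78% and 5.63% of those above 100. The 4 were PSMC4 at 0.59, PSMB2 at 0.44, PSMC6 at 0.28 and PSMB3 at 0.26, and the 3 were PSMD2 at -0.57, PSMB5 at -0.53 and PSMD6 at -0.32. All of them but PSMC6 have their probe in block 20 or 24, where the bright probes had a median line difference of 0.14 and -0.47 at 0 h. The median over the members was 0.01, the same as over all genes.

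At 12 h 2 members were at least 1.2-fold higher in 4KR cells, PSMC6 at 0.32 and PSMD2 at 0.29, and PSMD11, a scaffold of the lid, was lower at -0.27, where 0.863% of genes were higher and 1.24% lower, and 1.96% and 3.44% of those above 100. PSMD11 had intensities of 880.99 and 920.8 in LGP2 cells and 823.6 and 692.1 in 4KR cells, lowest on the array of stimulated 4KR cells. PSMB7 and PSMB6 followed at -0.26 and -0.22, and PSMB5 stood at 0.17.

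PSMC6, an ATPase of the base, was the member that passed 1.2-fold between the lines in the same direction at both times. Its intensity stood at 283.8 and 333.1 in LGP2 cells and 345.3 and 380.9 in 4KR cells, so that each 4KR array stood above both LGP2 arrays. Over the 6 scalings the 4KR over LGP2 ratio was 0.22 to 0.31 at 0 h and 0.19 to 0.46 at 12 h, and with the position and brightness correction it was 0.32 and 0.37. Its probe lies in block 22, where bright probes had median line differences of -0.04 and -0.08. With 1 array of each line per time this difference has no replicate check, and PSMC6 was singled out among 45 genes after its values were seen.

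**Figure D4:**
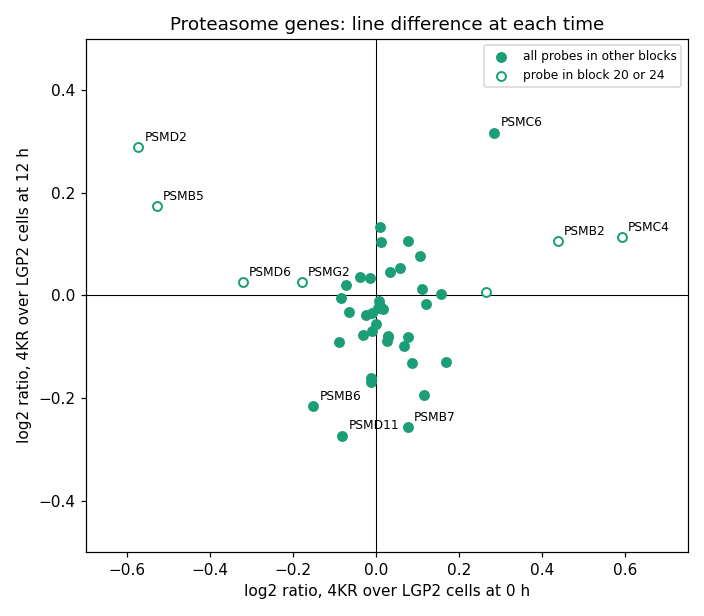
Log2 ratio of 4KR over LGP2 cells at 0 h (horizontal) and 12 h (vertical) for the 45 detected members, 1 point per gene; open circles have a probe in block 20 or 24. PSMC6 lies at 0.28 and 0.32, apart from the other filled points, and PSMD2 and PSMC4 lie at -0.57 and 0.59 on the horizontal axis.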

How the data were processed

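Cy5-labelled amino allyl RNA was hybridised to 4 single-colour arrays. The deposited scanner files hold spot medians as linear intensity, not normalized and joined from several gains, per the file headers. In the authors' series table each intensity equals the spot median minus about the blank level, scaled to an array median of 25. Its scale and centring were found by setting it against the scanner values. The scanner's background column tracked the signal itself (correlation of logarithms 0.990 to 0.997) and was not used. Each array has 27456 spots, 24460 gene probes and 384 blank spots. Between 83.2% and 89.2% of gene probes were detected, and the number of arrays limits the precision.

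Background was corrected against the mean blank spot with limma 3.58.1 in R 4.3.3 (normexp, offset 50), followed by quantile normalization and log2. Probes of a gene were averaged, and 1 probe rejected by the scanner was left out. Of the probes, 21707 carry 1 gene symbol in the platform annotation and 2753 carry none. Each comparison used the genes whose brighter array of the pair passed detection; the difference of the responses used those detected on all 4. The fit was lmFit and eBayes on 17085 genes, with Benjamini-Hochberg adjustment, and was tested on simulated data. The simulation gave every gene the same noise and held no scaling difference or block shift between arrays. It therefore does not tell how the fit behaves under those. Bright genes are those with a mean deposited intensity of at least 100. Named were PSME1, PSME2, PSMB10 and the catalytic genes, the highest and lowest response in each role, and the largest differences between responses and between lines. The members and lists were chosen with earlier results of these data known. The planned comparison of protein sequences was not made.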

Additional observations from a re-analysis of the deposited data

How the results depend on the processing

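The median of the members relative to all genes was recomputed under 10 alternatives, of which the position and brightness correction was chosen after seeing the data. In LGP2 cells it was -0.06 and stayed below 0 in all 10, down to -0.35 in the deposited table. In 4KR cells it was -0.09, but -0.0075 with median scaling, 0.0070 with unnormalized arrays and -0.36 in the deposited table. The difference of the responses was -0.04 and turned to 0.037 both without normalization and with median scaling. The line differences stayed between -0.07 and 0.01. The additive fit called 11 members, against 0 with plain subtraction, 2 in the deposited table, 17 without normalization, 17 with median scaling (8 higher and 9 lower) and 19 with the position and brightness correction (3 higher and 16 lower). Of 1070 values of named genes under alternatives, taken relative to all genes, 824 moved by less than 0.06 and 246 by more. This limit is the SD of 1 log2 ratio over all genes, estimated from the median absolute deviation. The sign changed in 71 of the 1070 values, of which 68 were under 1.2-fold to begin with. The other 3 were PSMC3IP in 4KR cells, at -0.013 from its brighter probe, and PSMD6 with the position and brightness correction, at -0.13 for the difference of the responses and 0.15 between the unstimulated lines. The cause was not tested. No array could be left out, since each group has 1. The fit over line and time takes the line as its block. No paired analysis by replicate number could be made because each group has 1 array.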
